A study of Bos taurus with 14 samples.

Results

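The family of miR-2284 and miR-2285 is a group of miRNA annotated in cattle and other ruminants. It was taken here as every entry whose mature name begins with bta-miR-2284 or bta-miR-2285, and 68 of the 350 miRNA/precursor entries belonged to it. The counts come from small extracellular vesicles (sEVs) of milk from 14 Holstein cows, all with subclinical mastitis, an udder inflammation without visible signs. The control group had 7 cows on the total mixed ration alone. In the inulin group 7 cows received the same ration with 300 g/d of inulin, a plant fructan used as a prebiotic, for 5 wk after 1 wk of adaptation. Milk of the last day was pooled for each cow, and each library came from the vesicles of all milk cells together. Fewer vesicles that carry a given miRNA and less of it per vesicle therefore cannot be told apart. Levels are given below as shares of the miRNA counts of a cow. A lower share can thus also go with more of other miRNA, and total amounts cannot be read from it.

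A miRNA is cut from a hairpin precursor and guides the silencing complex to messenger RNA that pairs with its 5′ end, the seed. Families with many similar hairpins pose a counting problem, because a short read can fit several of them. The present family is an extreme example. In the RefSeq annotation of cattle (assembly ARS-UCD2.0) 191 of 1032 miRNA genes carry its name. In milk 50 precursors were seen, of which 45 matched one of these genes by name. The targets of most members have not been established, and no role of a member is assumed here.

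Total counts ran from 4165 in control cow 2 to 415020 in control cow 5. As a check of the tissue, all 9 listed miRNA of mammary epithelium, among them the miR-200 family, were found. Together they held 0.480% to 2.91% of all counts in control cows and 0.951% to 1.52% in inulin cows. Of 7 listed miRNA of leukocytes 6 were measured, with 0% to 0.0860% in control cows and 0.00454% to 0.0486% in inulin cows. Of 3 listed for red blood cells, only miR-486 was measured, with 5 counts in 2 cows.

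The 68 entries combined 29 mature names, 14 of them miR-2284 and 15 miR-2285, with the 50 precursors. Mature lengths ran from 20 to 23 nt, with 5 names of 20 nt, 10 of 21 nt, 13 of 22 nt and 1 of 23 nt. The entries did not hold 68 separate measurements. In 59 of them the counts equalled those of another family entry in all 14 cows, which was 86.8% of the family against 29.8% of the 282 entries outside it. Entries with equal counts are called a set below, and the family had 22 sets. On average a set held 3.09 entries, compared with 1.28 outside the family. The largest set joined 14 entries of miR-2284z and miR-2284aa at the 7 mir-2284z precursors, and all of them showed the same 4 counts in control cow 5. The next joined 12 entries of miR-2284y and miR-2285av at 6 mir-2284y precursors, with 60 counts.

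Equal counts do not always mean shared reads. In 3 of the sets the entries had no mature name or precursor in common and held 1 count each. These were 8 entries seen once in control cow 5, 3 seen once in control cow 4 and 2 seen once in inulin cow 5. Joined instead by a common mature name or precursor, the entries fell into 24 groups, of which 19 were a lone entry. The miR-2284 and miR-2285 names did not separate the family either, since 9 entries paired a miR-2285 name with a mir-2284 precursor.

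**Figure D1:**
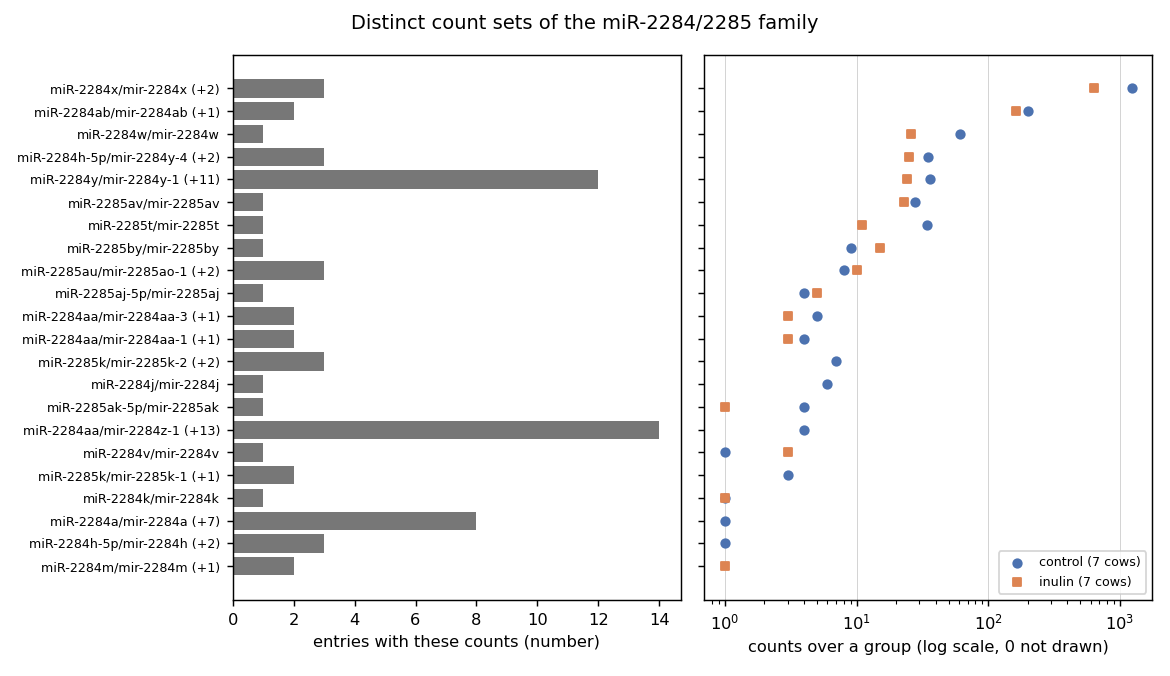
The 22 sets of family entries with equal counts, from the most to the fewest counts. Left, the number of entries in a set, named by its first entry with the number of further entries. Right, the counts of the set summed over the 7 control cows (circles) and the 7 inulin cows (squares) on a log axis, on which a sum of 0 is not drawn. The set of miR-2284x has 1238 and 636 counts, and the sets with most entries are not those with most counts.

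With each set counted once, the family had 2641 counts over all cows, or 0.159% of the counts of all miRNA. With every entry counted, as in the deposited table, it had 7663 counts, 2.90 times as many, and 0.460% of the total. The total of a cow contains such repeats of other miRNA too. Only equal counts were joined, so sets with nearly equal counts may still repeat reads in the family sum. Examples are those at mir-2284y-1, mir-2284y-4 and mir-2285av, with 60, 60 and 51 counts, which have the name miR-2285av in common. The family thus made up 19.4% of the entries and less than 1% of the counts.

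One set made up most of the family. It consists of miR-2284x/mir-2284x, miR-2284y/mir-2284x and miR-2285av/mir-2284x, which are 3 names for the reads at the mir-2284x precursor. It had 1874 counts, 71.0% of those of the family, and rank 32 among the 243 distinct sets of the whole table. It was also the only family set found in all 14 cows. The next was that of miR-2284ab and miR-2285by at mir-2284ab, with 364 counts in 10 cows. Then came miR-2284w/mir-2284w with 87 counts in 7 cows. The 6 further sets with at least 10 counts ranged from 60 down to 18 counts. All 9 sets with at least 10 counts were found in both groups, and they held 97.8% of the family's counts in 27 entries.

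The other 41 entries formed 13 sets with 58 counts in all, none above 9 counts. Of these 13 sets 11 were seen in control cow 5, which held 31 of the counts, and 7 in any inulin cow. Sets of this size included miR-2285k at 5 precursors, with 7 and 3 counts in control cows, and miR-2284j/mir-2284j, with 6 counts in control cows. Neither had a count in the inulin group.

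The mir-2284x precursor stood apart from its relatives. The names miR-2284y and miR-2285av are listed at mir-2284x and also at the 7 mir-2284y precursors, but the counts differed widely between them. At mir-2284x both had 1874 counts. At mir-2284y-1 and 5 further mir-2284y precursors both had 60 counts, which was 3.20% of the number at mir-2284x (95% Wilson interval 2.50% to 4.10%). At mir-2284y-4 there were also 60 counts, but they differed by 1 count in control cow 5 and in inulin cow 6, and miR-2284h-5p is a further name there. At mir-2285av the count was 51. The percentage at mir-2284y-1 was 5.81% in control cow 1 (2.51% to 12.9%) and 3.48% in control cow 5 (2.31% to 5.21%). In control cow 3 it was 0 of 128, which allows up to 2.34%. The Wilson intervals of these control cows overlapped, that of control cow 3 reaching 2.91%. In inulin cow 1, however, the percentage was 5.79%, and its Wilson interval began at 3.26%, above the whole interval of control cow 3. All other pairs of cows had overlapping intervals. The Wilson intervals take the counts at mir-2284x as trials, although those at mir-2284y-1 are not a part of them, so they are approximate. The first of them joins the counts of all cows. These intervals and limits cover counting error only.

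Of the 45 matched precursors, 27 lie within the bounds of a protein-coding gene, without regard to strand or exons. The mir-2284x precursor lies within TIAM1, an exchange factor for the GTPase Rac. The mir-2284ab precursor lies within AFF1, a scaffold of transcription elongation complexes, and mir-2284w within DOCK11, an exchange factor for Cdc42. The mir-2285t precursor lies within FCGR2B, the inhibitory Fc receptor of B cells and myeloid cells. The matches of mir-2285av and mir-2285by lie in no protein-coding gene. Positions are not given, because the assembly of this annotation differs from the ARS-UCD1.2 build named in the submitters' processing notes.

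To ask whether the family differed with diet, its counts (each set once) were expressed as the percentage of the total of the cow. In the control group the lowest cow had 0.0130%, the median was 0.199% and the highest cow had 0.270%. In the inulin group the lowest was 0.0399%, the median 0.112% and the highest 0.169%. All 7 inulin cows were below the median of the control group, and 5 of the 7 control cows were above every inulin cow. The remaining control cows, 2 and 7, were below most inulin cows, so the groups overlapped. The means were 0.174% ± 0.0895 (SD, n = 7) and 0.105% ± 0.0472 (SD, n = 7), and the inulin mean was 0.602 times the control mean. The difference of -0.0690 percentage points was not beyond the spread between cows (two-sided exact permutation test with 3432 possible divisions of the cows, p = 0.0962). Its 95% interval, from inverting the same test, ran from -0.150 to 0.0155 percentage points.

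Control cow 7 weighed most on this comparison. It had 3 family counts among 23155 (0.0130%, 95% Wilson interval 0.00441% to 0.0381%), the lowest share of all cows. Control cow 2 had 4 counts among 4165 (0.0960%, 0.0374% to 0.247%). In contrast, the 60 counts of control cow 6 among 30225 gave 0.199% (0.154% to 0.255%), at a depth close to that of control cow 7. Without the 3 cows under 30000 counts, control cows 2 and 7 and inulin cow 4, the difference was -0.113 percentage points (exact permutation test, p = 0.00433), a choice made after seeing the data. This choice left out the only control cows that were not above every inulin cow, so the remaining groups no longer overlapped. Without control cow 7 alone the difference was -0.0958 percentage points (exact permutation test, p = 0.0111). This was 1 of 14 such comparisons with a cow left out, and it was the only one with p under 0.05 for the family share, the others ranging from 0.0635 to 0.184 (exact permutation tests).

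**Figure D2:**
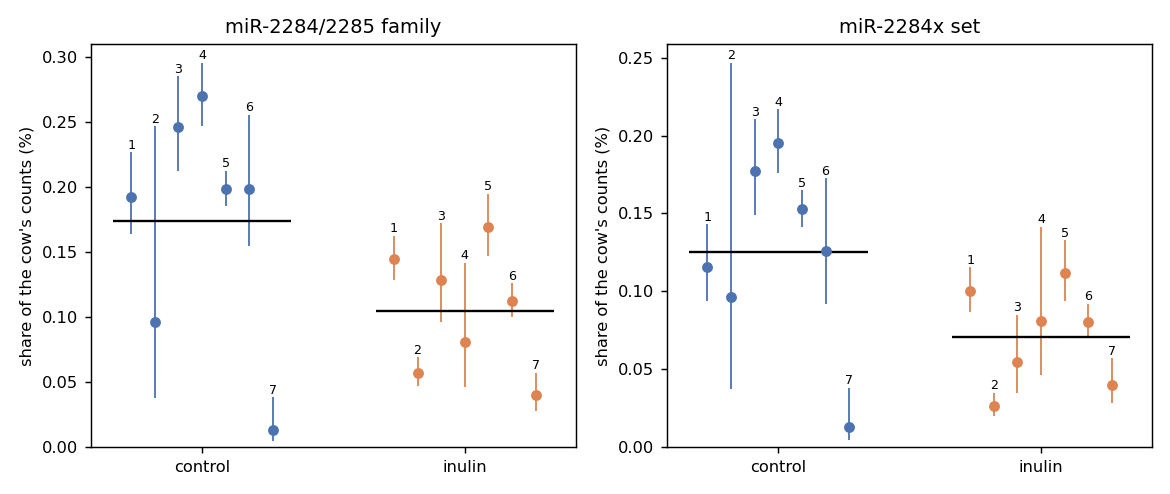
Share of the counts of each cow (%, linear axis) held by the family with each set counted once (left) and by the miR-2284x set (right). Points are cows with their number, vertical bars are 95% Wilson intervals for counting error, and horizontal lines are group means, 0.174% and 0.105% on the left. Most control cows lie above the inulin cows, but control cow 7, at 0.0130%, lies below all cows.

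Most of the difference lay in the miR-2284x set, which ranged from 0.0130% to 0.195% in control cows, with a median of 0.126%. In inulin cows it ranged from 0.0261% to 0.112%, with a median of 0.0803%. Again all 7 inulin cows were below the control median and 5 control cows above every inulin cow. The means were 0.125% ± 0.0604 and 0.0705% ± 0.0314 (SD, n = 7 each), with a difference of -0.0546 percentage points (exact permutation test, p = 0.0571; 95% interval -0.108 to 0.00227). Without control cow 7 it was -0.0733 (exact permutation test, p = 0.00291), and without inulin cow 5 it was -0.0614 (exact permutation test, p = 0.0449). They were the only comparisons with a cow left out that had p under 0.05 for this share. The others ranged from p = 0.0548 to 0.115 (exact permutation tests). Without the 3 cows under 30000 counts, which again left groups without overlap, the difference was -0.0846 (exact permutation test, p = 0.00433). On the log2 CPM scale, with a prior count of 2, the difference was -0.78 (exact permutation test, p = 0.148). The family without this set had 0.0485% ± 0.0347 in control and 0.0341% ± 0.0277 in inulin cows (SD, n = 7 each; exact permutation test, p = 0.396).

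For the set at mir-2284ab the share ranged from 0% to 0.0662% in the control group, with a median of 0.0249%. In the inulin group it ranged from 0% to 0.0457%, with a median of 0.0137%. The highest values were those of control cow 6 (20 counts) and inulin cow 3 (16 counts), and 4 cows had no count. The total counts of control cow 6 and inulin cow 3, 30225 and 34977, were below the medians of their groups, 72277 and 112974. The difference of -0.00605 percentage points did not exceed the variation among cows (exact permutation test, p = 0.610; 95% interval -0.0311 to 0.0189).

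The counts of miR-2284w/mir-2284w were uneven. Control cow 3 had 32 counts (0.0443%, 95% Wilson interval 0.0314% to 0.0625%), whereas control cow 5, with more than 5 times its depth, had 5 counts (0.00120%, 0.000515% to 0.00282%). The next highest were control cows 4 and 1 with 13 and 11 counts, and inulin cow 5 with 10. In 7 cows it had no count, including inulin cow 2, where 0 of 176076 counts allow a share of up to 0.00170%.

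The sets at the mir-2284y precursors, mir-2285av and mir-2285t appeared in largely the same cows. At mir-2284y-1 control cows 1, 4 and 5 had 5, 9 and 22 counts, and inulin cows 1, 2, 5 and 6 had 11, 1, 3 and 9. The miR-2285t/mir-2285t counts were 5, 10 and 19 in the same control cows and 6, 1 and 4 in inulin cows 1, 5 and 6. In contrast, the miR-2285by/mir-2285by counts were highest in inulin cows 6 and 3, with 8 and 7, and did not exceed 3 in a control cow. The miR-2285au set had 8 counts in control cow 5, 7 in inulin cow 1 and 3 in inulin cow 6.

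Within the family the miR-2284x set was the largest in 13 of the 14 cows. In inulin cow 2 the mir-2284ab set had 52 counts against 46 for miR-2284x, and in inulin cow 3 it had 16 against 19. In the deepest cow, control cow 5, it had 66 against 633. The miR-2284x set held 77.8% ± 16.2 of the family counts in a control cow and 70.7% ± 23.0 in an inulin cow (SD, n = 7 each; exact permutation test, p = 0.531). In 4 cows it was the only family set detected, but these had 3, 4, 12 and 30 family counts.

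**Figure D3:**
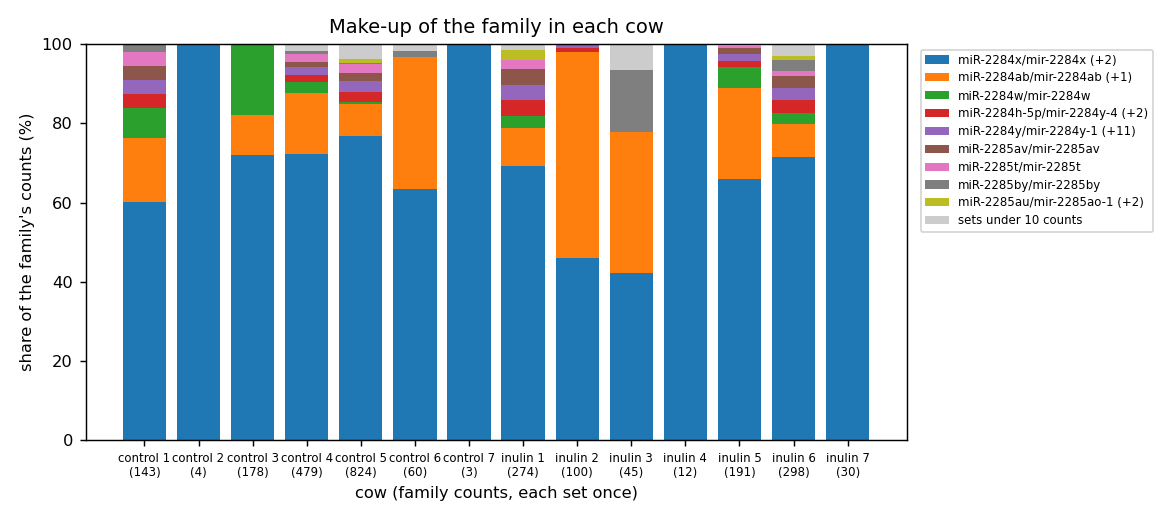
Make-up of the family in each cow, as the share (%) of its counts held by each set with at least 10 counts over all cows and by the smaller sets together (grey). The number of family counts is given under each cow, from 3 in control cow 7 to 824 in control cow 5. The miR-2284x set fills most of each bar except in inulin cows 2 and 3, at 46.0% and 42.2%.

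How many sets were seen went with the total miRNA count of a cow, which is called its depth here. Whether that total reflects sequencing or the amount of miRNA in the sample was not tested. Control cow 5 had 20 of the 22 sets, control cow 4 had 13 and inulin cow 6 had 12, while control cows 2 and 7 and inulin cows 4 and 7 had 1. Sets outside the family were also fewest in control cow 7, inulin cow 4 and control cow 2, with 58, 62 and 70. They were most in control cow 5, with 185, so this pattern is not particular to the family. Their relation to depth was not tested. The number of family sets rose with the log10 of the total count over the 14 cows (Pearson's r = 0.782, permutation p = 0.00113, or 0.00452 after adjustment). Spearman's rho was 0.847 (permutation p = 0.00022, or 0.00088 after adjustment). Dropping the 2 most extreme depths gave r = 0.771. Among the control cows alone r was 0.864 (exact permutation p = 0.0115, adjusted p = 0.0230, n = 7; rho = 0.955, exact p = 0.00397). Among the inulin cows alone r was 0.753 (exact permutation p = 0.0524, adjusted p = 0.0698, n = 7; rho = 0.855, exact p = 0.0206). When the 2 most extreme depths of each group were dropped, r became 0.878 (control) and 0.785 (inulin). The share of the family was the last of the 4 relations examined, and it was not clearly related to depth (r = 0.349, permutation p = 0.219; rho = 0.345, permutation p = 0.226; r without the same 2 cows 0.262). Inulin cows 2 and 7 had 4 sets and 1 set at totals of 176076 and 75102, whereas control cows 4, 1 and 3, at similar totals, had 13, 8 and 3. Inulin cows 1 and 5, however, had 11 and 8 sets at totals of 189928 and 112974.

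A control cow had 7.14 ± 7.10 family sets and an inulin cow 5.86 ± 4.53 (SD, n = 7 each). The difference of -1.29 sets did not exceed the variation among cows (exact permutation test, p = 0.738; 95% interval -8.33 to 5.50), and it was 0.857 without control cow 5. At the lowest total of any cow, 4165 counts, 2.18 ± 1.08 sets would be expected in a control cow and 1.89 ± 0.793 in an inulin cow (SD, n = 7 each; exact permutation test, p = 0.552).

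**Figure D4:**
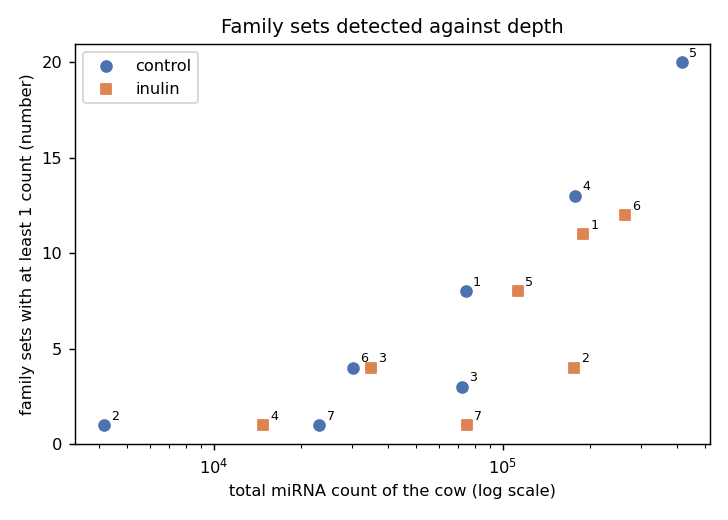
Number of family sets with at least 1 count in each cow against its total miRNA count (log axis), for control cows (circles) and inulin cows (squares) labelled with their number. The number is 1 at the lowest total, 4165, and 20 at the highest, 415020, but the rise is not steady. Inulin cow 7 has 1 set at 75102 and inulin cow 2 has 4 at 176076.

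Of the 68 entries, 35 had counts in both groups, 31 had them in the control group alone and 2 in the inulin group alone. The 31 are 45.6% of the family, whereas 28.9% of all 350 entries were found in control cows only. The 2 are 2.94% of the family, against 5.14% of all entries found in inulin cows alone. Control cow 5 alone accounted for 22 of the 31, and 14 of these 22 are the entries that share 4 counts at the mir-2284z precursors. Without this cow 46 family entries remained, of which 9 had counts in the control group alone and 12 in the inulin group alone. Over the 294 entries left in the table, 15.3% were then found in control cows only, against 19.6% in the family. For inulin cows alone these shares were 17.3% and 26.1%.

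For the test across the whole table, the quasi-likelihood test of edgeR was applied to the 210 entries with at least 10 counts over all cows, of which 27 were family entries in 9 sets. The call rule of the study, an unadjusted P under 0.05 with an absolute log2 fold change above 1, was met by 9.05% of the 210 entries and by none of the 27 (0 entries, also 0 at an unadjusted p under 0.05 in edgeR). DESeq2 called 4.29% of the 210 entries and limma-voom 6.67%, and both called 0 of the 27, with 0 at an unadjusted p under 0.05. Without inulin cow 5, edgeR called 10.6% of 207 entries and 1 of the 27, miR-2284w/mir-2284w. With cows of the same number as a block, edgeR called 3.33% of the 210 entries and 0 of the 27. The log2 fold change (inulin against control) was below 0 for 7 of the 9 sets, and their median was -0.48. Over all 210 entries 147 were below 0 and the median was -0.40.

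For the miR-2284x set edgeR estimated -0.86 on this scale, with a standard error of 0.618 and an adjusted p of 0.914. DESeq2 gave -0.99. For the mir-2284ab set edgeR gave -0.37, with a standard error of 0.968 and an adjusted p of 0.985. The smallest p-value of the family belonged to miR-2284w/mir-2284w, at -1.82 with a standard error of 1.21 and an adjusted p of 0.898 in edgeR, and 32 of its 61 counts in the control group were those of control cow 3. For miR-2285t/mir-2285t, with 34 control and 11 inulin counts, edgeR gave -1.55 with an adjusted p of 0.914. Values above 0 were those of miR-2285by/mir-2285by, 0.81 (standard error 1.39), and of the miR-2285au set, 0.70 (standard error 1.22). For the miR-2285au set the unadjusted p of edgeR was 0.791, larger than this standard error implies, so the error is too small there.

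**Figure D5:**
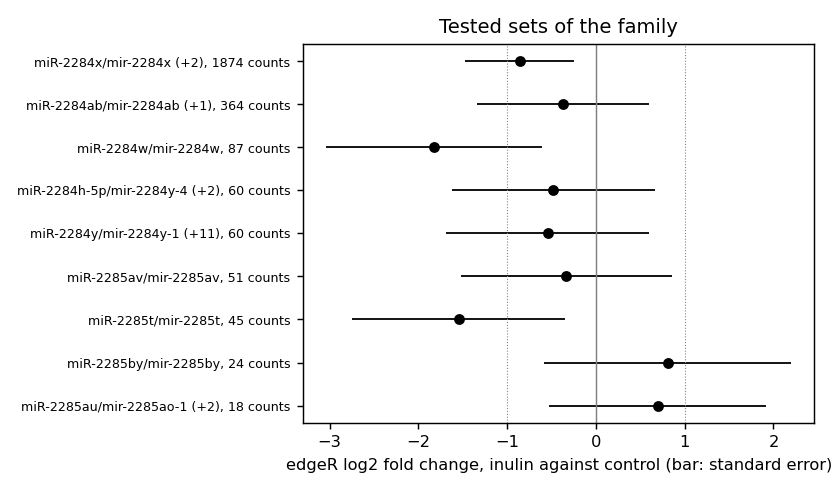
Log2 fold change, inulin against control, of the 9 family sets that entered the edgeR test, with bars of 1 standard error; dotted lines mark the fold change of the call rule. Sets are ordered by counts, from 1874 for miR-2284x to 18 for miR-2285au. The estimates run from -1.82 to 0.81, and none met the rule. The bar of the miR-2285au set is shorter than its p-value in edgeR implies.

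The filter on low counts decided whether family entries were called. Without it, edgeR called 21.4% of all 350 entries and 20 of the 68 family entries, which were miR-2284j/mir-2284j, the 14 entries at the mir-2284z precursors and the 5 entries of miR-2285k. All of these had 0 counts in the inulin group and at most 7 in the control group. Given the 4 shared counts at the mir-2284z precursors, these 20 entries stand for 4 sets.

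Outside the family, the shares of 82 sets with at least 100 counts were compared with that of the miR-2284x set over the 14 cows, to name the 3 most alike. The closest was miR-223/mir-223, a miRNA abundant in neutrophils and monocytes (Spearman's rho = 0.805, Pearson's r = 0.664). It was followed by miR-339b/mir-339b (rho = 0.718, r = 0.718) and by the set at mir-339a, which carries the names miR-339a and miR-339b (rho = 0.714, r = 0.737). The median rho of the 82 sets was 0.0592. Without control cows 4 and 7, the cows farthest from the median of miR-2284x, rho was 0.802 for miR-223 and 0.602 and 0.595 for the miR-339 sets. These values were picked as the highest of 82, and all shares of a cow have the same total, so they are a description. They were taken over both diets together and not within each group, so a common difference between the groups can enter them. Counts of miR-223 were seen in 7 cows, 265 of them in control and 62 in inulin milk. Its share reached 0.0475% in control cows (median 0.0148%) and 0.0239% in inulin cows (median 0%). The miR-339b/mir-339b set was seen in 8 cows, with 130 counts in control and 16 in inulin milk. For the mir-339a set, also seen in 8 cows, these were 159 and 16. The study reported the miR-339 entries as lower in the inulin group. The part of leukocyte miRNA in the level of the family was not tested.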

How the data were processed

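The authors deposited 1 table with the read counts of each miRNA/precursor in each of 14 cows, obtained with miRDeep2 against miRBase after adapter trimming and filters on length and quality, without normalization. Its rpm columns, which the authors scaled to the total of the cow, differed from recomputed values by at most 0.005 over all entries and were not used further. Per the file headers, the table also gives lengths in nt. Cows were grouped by their titles, and 0 columns remained without a cow. A read that fits several precursors or names can be counted at each, so entries with equal counts in all cows were taken once. The family, the marker lists and the tests were chosen with earlier results of these data known.

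Shares are percentages of the total of the cow with 95% Wilson intervals, and a count of 0 allows up to 3 counts of the total. Single values were compared with exact permutation tests over the cows, two-sided. The smallest possible p is 0.000583 with all 14 cows and larger with cows left out. Correlations over 14 cows used 100000 permutations, and their p-values were adjusted over 4 relations. Numbers of sets at the lowest total are exact expectations for sampling without replacement. Across entries, the quasi-likelihood test of edgeR 4.0.16 in R 4.3.3 was fitted on the whole table after TMM normalization, and p-values were adjusted by Benjamini-Hochberg. Its standard errors are the fold change divided by the square root of F. The study used DESeq2, which was an alternative here (version 1.42.0, without independent filtering), as was limma-voom (limma 3.58.1). Further alternatives were other normalizations and filters, a minimum of 3 counts, prior counts of 2 and 0.5 on the log2 scale, equal sets taken once, 1 precursor per miRNA, leaving out single cows, and blocking on cow number. The fits were tested on simulated data.

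Sets with at least 10 counts are named with their values, and smaller ones by counts and ranges. Those of them named singly, and the cows compared at similar depth, were chosen after their values were seen. The permutation tests used SciPy 1.17.1 under Python 3.11.15, and figures were drawn with matplotlib 3.10.9. Mature sequences and predicted targets were not analysed here.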

Additional observations from a re-analysis of the deposited data

Results flagged for a closer look

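In 26 groups of 7 values, among them the total count and the shares of the family and of its 9 larger sets, the cow at either end was compared with the rest by Dixon's ratio at its 95% critical value. About 1 in 20 independent groups of normal values would pass by chance, or 1.3 of 26, and 5 did. Many of these groups hold counts of 0 and some share counts, so that the 1.3 is only a rough guide. The total count of control cow 5, 415020, stood apart from the next control cow with 177212 (ratio 0.579). The share of miR-2284w/mir-2284w in control cow 3, 0.0443%, was far above the next, 0.0148% (ratio 0.665). For miR-2285by/mir-2285by inulin cow 3 had 0.0200%, from 7 counts, against 0.00302% in the next inulin cow (ratio 0.849). The miR-2285au set had 0.00193% in control cow 5, where no other control cow had a count, so that the ratio is 1 by construction. In inulin cow 1 its share was 0.00369%, from 7 counts, against 0.00113% in the next inulin cow (ratio 0.693). The share of the family as a whole was not among these picks. For control cow 7, its lowest value in the control group, the ratio was 0.323.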

How the results depend on the processing

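The family share was lower in the inulin group under all 25 alternatives, and 22 of these stayed on the same side of the threshold. Leaving out each cow moved it between -0.0958 and -0.0529 percentage points. With 1 set per group of entries joined by a common mature name or precursor, added after seeing the data, it was -0.0693 (exact permutation test, p = 0.0816). Without the 3 cows under 30000 counts it was -0.113, and the difference in the miR-2284x share was -0.0846 (exact permutation tests, p = 0.00433 for both). These alternatives, chosen after seeing the data, left no overlap between the groups. With the replicate block, cows with the same number taken as pairs, the difference in the family share was -0.0690 (exact sign-flip permutation test, p = 0.0313). That in the miR-2284x share, added after seeing the data, was -0.0546 (same test, exact p = 0.0469). The numbers do not pair the cows, since the labels count each group separately and only 2 of the 7 correlations between same-numbered cows were above 0.1 (-0.335 to 0.280). With the block, edgeR called 7 of the 210 entries in place of 19, and 0 of the family in both fits. The difference in sets detected also stayed on the same side of the threshold. On the log2 scale the p-values were 0.295 and 0.447 (exact permutation tests, prior counts of 2 and 0.5). The difference in sets detected ranged from -2.31 to 0.857 with each cow left out, turning positive without control cow 5. That of the miR-2284x share ranged from -0.0733 to -0.0429 likewise, and 14 of its 18 alternatives stayed on the same side. The number of family entries called was 20 without a filter and 0 or 1 with each cow left out. The entry called was miR-2284w/mir-2284w, without inulin cow 5 (adjusted p = 0.446 from edgeR, with 22 of 207 entries called). In the other 7 alternatives it was 0. The log2 fold change of miR-2284x stayed between -1.19 and -0.55 over 22 alternatives. The relation of sets to depth missed the threshold within the inulin group (r = 0.753, exact permutation p = 0.0524). The cause of these changes was not tested. At the depth of control cow 2, 0 counts of a set allow a share of up to 0.0720%.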
